A study of Rattus norvegicus with 24 samples.

Results

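The axon guidance ligands and receptors described here are 68 of the 29539 genes in the deposited count table of rat brain. They were matched by gene name, under a rule set with earlier results of these data known. They make up 11 families: 20 semaphorins, 9 plexins, 2 neuropilins, 3 Slits, 3 Robo receptors, 5 A-type and 3 B-type ephrins, 9 EphA and 5 EphB receptors, 4 netrins, and the 5 netrin receptors Dcc and Unc5a to Unc5d. Of these, 67 passed the filter on low counts, the exception being Ntn5. The data are RNA sequencing libraries from 24 brain samples of the rat (Rattus norvegicus), 8 each under the labels Normal Control, Vehicle and SKF. The series describes traumatic brain injury made by a stab wound of the forebrain. SKF stands for SKF-81297, an agonist of D1-like dopamine receptors, injected into the peritoneum on each of 3 days, with the first dose 1 h after the injury. The Vehicle group has no other label and is taken to be wounded brain without the agonist, and the SKF group to be wounded brain with it. Normal Control is read as brain without the wound, although the labels do not say whether these animals had sham surgery or an injection. The labels used here do not state genotype, strain, sex, age, part of the brain or collection time, nor whether each sample is a separate animal. Each p therefore measures the spread between these samples, which may be technical.

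Guidance molecules steer growing axons and cell migration during development and persist in the adult brain at synapses, in glia and in vessels. Semaphorins signal through plexins, and most of the secreted class 3 semaphorins also need a neuropilin as ligand-binding partner. Slits bind Robo receptors, netrins bind Dcc (mostly attraction) and Unc5 receptors (repulsion), and the membrane-bound ephrins bind Eph receptor tyrosine kinases on neighbouring cells. Several of these ligands are known as inhibitors of axon growth around brain and spinal cord wounds.

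Total counts per library ran from 8911339 to 12383368. Values are given as CPM (counts scaled to the library's size) after TMM scaling, which corrects for library composition and serves to compare 1 gene between libraries, or as the authors' deposited TPM (transcript abundance scaled for length), which serve to compare genes. Each adjusted p is from edgeR's quasi-likelihood test over the 14421 genes tested (Benjamini-Hochberg, threshold 0.05), and each log2 fold change is given ± SE of the fit. "Rose" and "fell" are used for genes that passed. Summed TPM of general neuron markers (8 of 8 genes in the table) ran from 4160 to 5830 in normal control, 2810 to 5150 in vehicle and 3870 to 4830 in SKF, with medians of 5060, 4440 and 4370. Of these 8 genes 6 were called lower in vehicle and 5 in SKF, and none higher. Normal control 6 stood apart in regional markers. Its summed striatal markers (6 of 7 genes in the table) were 2990 TPM, against 98.4 to 894 in the other 23 libraries, and its thalamus markers (6 of 6) were 21.2 TPM, against 82.3 to 277 in the other normal controls. Its choroid plexus markers (5 of 5) were 10.4 TPM, against a normal control median of 5190. Normal control 4 held 2400 TPM of skeletal muscle markers. Results that rest on either library are given with and without it.

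In normal control brain the members differed widely in level. Sema7a, a semaphorin held to the membrane by a glycolipid anchor, was the highest at 292 ± 46.7 TPM (mean ± SD, n = 8). Next came Epha4, an Eph receptor that binds both A-type and B-type ephrins, at 98.5 ± 22.2 TPM. The lowest Sema7a library (233 TPM) lay above the highest Epha4 library (137 TPM). Below these 2 genes, Sema6b (75.5 ± 9.13 TPM), Sema6d (65.8 ± 7.78), Sema4d (64.9 ± 9.69), Ephb6 (64.7 ± 7.57) and Plxnb1 (57.7 ± 6.28) came next, of which Sema6d, Sema4d and Ephb6 differed from each other by less than their SDs. Altogether 53 members had a mean of at least 10 TPM, and 2 lay under 1 TPM. These were Efna4 (0.897 ± 0.435 TPM) and Ntn5 (0.78 ± 0.578 TPM). In counts the lead of Sema7a was smaller (means of 3242 counts for Sema7a and 2647 for Epha4), since Sema7a had 0.548 times as many counts per TPM as the median member.

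**Figure D1:**
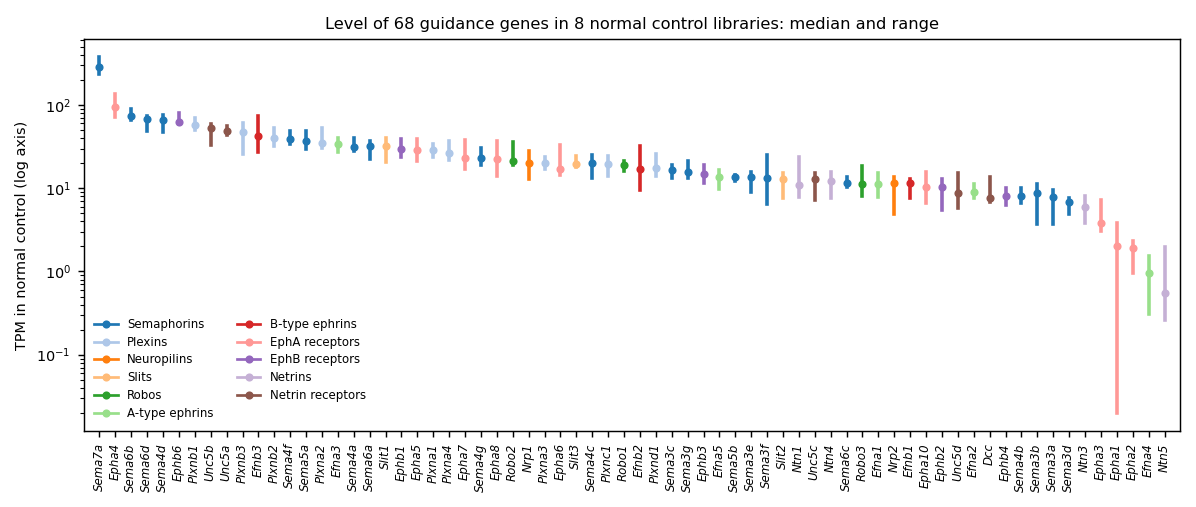
Level of each of the 68 guidance genes in the 8 normal control libraries, in TPM on a log axis, with the point at the median and the line from the lowest to the highest library, coloured by family. Sema7a stands alone at the top, and most members lie between 10 and 100 TPM.

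Most of the guidance genes that differed between vehicle-treated wounded brain and normal brain were lower after the wound. In vehicle against normal control, 9 of the 67 members tested rose and 33 fell, while 25 did not pass. That is 62.7% called, against 54.0% of all genes tested. By direction, 13.4% of the members rose where 26.9% of all genes did, and 49.3% fell where 27.1% of all genes did. The median log2 fold change of the members was -0.27, and that of all genes was -0.01. The libraries of the 2 groups did not overlap, with vehicle higher, for 4 members (11.6% of all genes), and with vehicle lower for 13 (7.50% of all genes). Most changes were moderate: 2 members rose and 6 fell by at least 2-fold.

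By role, more of the receptors than of the ligands fell. Of 33 receptors, 4 rose, 21 fell and 8 did not pass, with a median log2 fold change of -0.40. Among the 34 ligands tested, 5 rose, 12 fell and 17 did not pass, with a median of -0.17. These are counts over genes and carry no test of the difference between the lists.

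SKF-treated wounded brain was compared with the same normal controls, so its values are not independent of those for vehicle and are set beside them. In SKF against normal control, 8 members rose, 35 fell and 24 did not pass. That is 64.2% called against 50.2% of all genes tested, where 25.5% of all genes rose and 24.7% fell. The median log2 fold change of the members was -0.25, beside -0.01 for all genes. The libraries did not overlap, with SKF higher, for 2 members (11.5% of all genes) and, with SKF lower, for 11 (7.11% of all genes). None of the 8 rose by 2-fold, and 7 fell by at least that much.

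The share of higher to lower calls depends on the scale. On the authors' TPM values (limma on log2(TPM + 1), where the median gene lay at +0.11 on the log2 scale in vehicle against normal control), 16 members were called higher and 21 lower in vehicle, in place of 9 and 33. Over all 15280 genes tested on that scale, 35.8% were higher and 15.6% lower. All 9 that rose on counts were among the 16, and the 7 added were Efna1, Nrp2, Plxnd1, Robo3, Sema3f, Sema4c and Sema7a. All 21 called lower on TPM were also lower on counts. The 12 that lost the call were Efna2, Epha5, Ephb2, Ephb3, Ephb6, Nrp1, Plxna2, Plxnb3, Sema6a, Slit3, Unc5c and Unc5d, whose log2 fold changes on counts ran from -0.46 (Nrp1) to -0.23 (Ephb6). In SKF against normal control the TPM split was 10 higher and 24 lower, in place of 8 and 35, against 32.7% and 14.9% of all genes on that scale. All 24 were among the 35, and the 11 that lost the call were Epha5, Ephb2, Ntn4, Plxna1, Plxna3, Plxnb3, Sema3b, Sema6a, Slit3, Unc5b and Unc5d, whose log2 fold changes on counts ran from -0.55 (Sema3b) to -0.16 (Plxna1). The falls given for these genes in each group are therefore calls on counts, not on TPM. No member that passed on counts changed its direction on TPM.

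**Figure D2:**
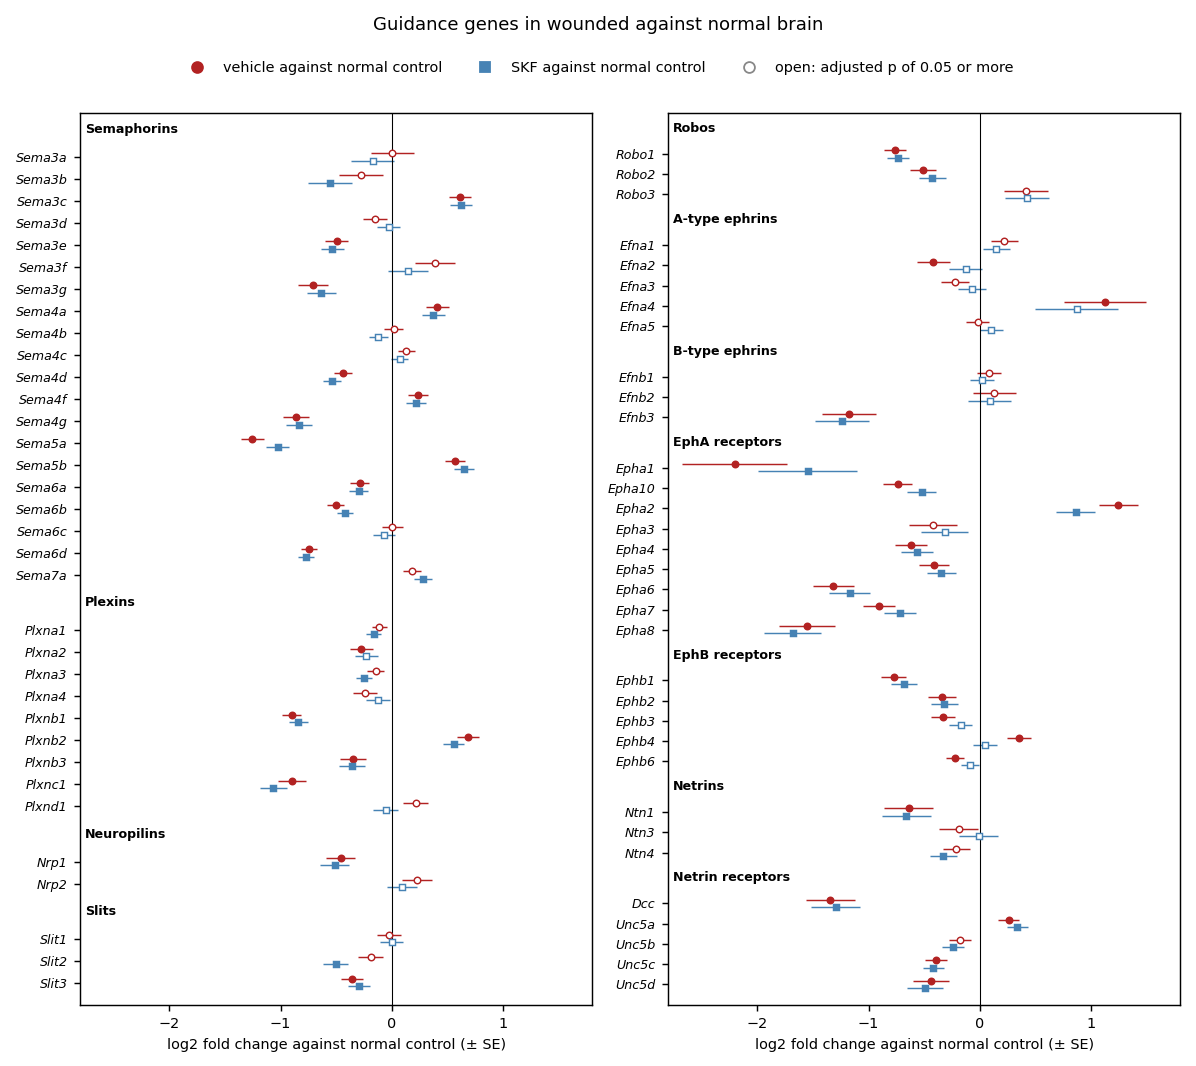
Log2 fold change (± SE) of each tested guidance gene against normal control, by family, in vehicle (red circles) and SKF (blue squares), with open symbols for an adjusted p of 0.05 or more. Both wounded groups share the 8 normal control libraries. Epha2 lies far to the right of the other Eph receptors, and Epha1, Epha8, Epha6, Dcc, Sema5a and Efnb3 lie at -1 or below in both groups.

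Wound samples also differed from normal control in the markers of several cell types. Summed oligodendrocyte markers (6 of 6 genes) had a median of 15400 TPM (range 9520 to 18000) in normal control, 8950 (8220 to 12200) in vehicle and 8550 (6250 to 10200) in SKF. Reactive astrocyte markers (6 of 6, with Serpina3n at 0 in every library) had medians of 588 (352 to 735), 4360 (3380 to 5000) and 4210 (3840 to 4580) TPM. Of 6 general astrocyte markers Gfap rose and the other 5 fell in both groups, with a median log2 fold change over the 6 of -0.68 in vehicle and -0.66 in SKF. Of 4 markers of oligodendrocyte precursors 3 fell in both groups (medians of -0.40 and -0.50), and the general neuron markers had medians of -0.36 and -0.27. Markers of monocytes and macrophages (7 of 7) stood at 33.3 (25.7 to 41.5), 288 (255 to 398) and 245 (183 to 368), and endothelial markers (7 of 8 in the table) at 215 (191 to 235), 345 (270 to 392) and 330 (279 to 354). By gene, 4 of these 7 endothelial markers rose and 1 fell in vehicle, and 4 rose and 2 fell in SKF. Beside these marker counts, 26.9% of all genes tested rose and 27.1% fell in vehicle, and 25.5% rose and 24.7% fell in SKF. Thalamus markers were at 171 (21.2 to 277), 46.8 (34.0 to 59.6) and 48.3 (27.5 to 116). In whole tissue, fewer cells of a type and less RNA of a gene per cell cannot be told apart. The part of these cell and region markers in the changes of guidance genes was not tested.

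Semaphorins moved in both directions. Of the 20, 4 rose, 8 fell and 8 did not pass in vehicle, and 5 rose, 9 fell and 6 did not in SKF. That is 60.0% called in vehicle and 70.0% in SKF, against 54.0% and 50.2% of all genes tested. Each count by class or family below is to be read beside these shares of all genes. The 2 class 5 semaphorins, transmembrane proteins with thrombospondin repeats, went opposite ways. Sema5a was at 135, 154 and 206 CPM in normal control (lowest, median and highest library), 57.1, 65.3 and 80.3 CPM in vehicle and 61.1, 80.6 and 93.2 CPM in SKF. Every wounded library lay below every normal control, with log2 fold changes of -1.25 ± 0.10 in vehicle (adjusted p = 1.02e-10) and -1.03 ± 0.10 in SKF (adjusted p = 4.29e-09). Sema5a had the smallest adjusted p of all members in vehicle against normal control. Sema5b was at 24.9, 26.4 and 29.4 CPM in normal control, 31.2, 39.7 and 48.7 in vehicle and 30.8, 41.2 and 50.3 in SKF. Again the groups did not overlap, here with the wounded libraries higher, and the log2 fold changes were 0.57 ± 0.09 (adjusted p = 7.43e-06) and 0.65 ± 0.09 (adjusted p = 1.23e-06).

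Among the 7 secreted class 3 semaphorins, 1 rose, 2 fell and 4 did not pass in vehicle. Sema3c, which binds both neuropilins, was the one that rose. It was at 28.8, 32.9 and 40.3 CPM in normal control, 42.5, 49.9 and 63.9 in vehicle and 39.6, 50.2 and 65.3 in SKF. All vehicle libraries exceeded all normal controls, while the lowest SKF library fell just inside the normal range. Its log2 fold change was 0.61 ± 0.10 in vehicle (adjusted p = 8.62e-06) and 0.62 ± 0.10 in SKF (adjusted p = 8.06e-06). The members that fell were Sema3g, with non-overlapping groups (-0.71 ± 0.13 in vehicle, -0.63 ± 0.13 in SKF), and Sema3e, the ligand of Plxnd1 (-0.50 ± 0.10 and -0.53 ± 0.10). Sema3a, the classic growth cone collapsing factor that acts through Nrp1, was at 8.30, 17.9 and 20.9 CPM in normal control, 10.1, 17.0 and 27.5 in vehicle and 11.0, 13.9 and 24.2 in SKF. These ranges overlapped almost entirely, and neither difference passed (adjusted p = 0.989 in vehicle and 0.477 in SKF). Sema3f, the Nrp2 ligand, had a log2 fold change of 0.39 ± 0.18 in vehicle that did not pass (adjusted p = 0.072). Without normal control 6, which had the highest value of its group, it was 0.61 (adjusted p = 0.0003) in vehicle and 0.37 (adjusted p = 0.0222) in SKF. Sema3b passed in SKF alone (-0.55 ± 0.20, adjusted p = 0.0228), but not without normal control 3 (-0.47, adjusted p = 0.0571), and Sema3d passed in neither group.

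The 6 transmembrane class 4 semaphorins divided evenly, with 2 that rose, 2 that fell and 2 that did not pass in each wounded group. Sema4d, which signals through Plxnb1 and is made by oligodendrocytes and immune cells, was at 119, 153 and 178 CPM in normal control, 99.0, 111 and 125 in vehicle and 81.4, 106 and 123 in SKF. The lowest normal control was replicate 6, which alone lay among the wounded libraries, and the log2 fold change was -0.44 ± 0.08 in vehicle (adjusted p = 3.8e-05) and -0.53 ± 0.08 in SKF (adjusted p = 3.11e-06). Sema4g fell further, from 35.0, 39.3 and 51.7 CPM in normal control to 15.2, 23.9 and 25.8 in vehicle and 18.9, 22.2 and 33.0 in SKF. Its groups did not overlap, and the log2 fold changes were -0.86 ± 0.12 (adjusted p = 6.4e-07) and -0.83 ± 0.12 (adjusted p = 1.19e-06). Sema4a, which also acts on immune cells, rose, with a log2 fold change of 0.41 ± 0.10 in vehicle (adjusted p = 0.00164) and 0.37 ± 0.10 in SKF (adjusted p = 0.00386). The smaller rise of Sema4f (0.23 ± 0.09 and 0.22 ± 0.09) no longer passed without any 1 of 4 libraries in vehicle (adjusted p 0.0519 to 0.084) or any 1 of 8 in SKF (0.057 to 0.107). Sema4b and Sema4c did not pass in either group.

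Of the class 6 semaphorins, transmembrane ligands of A-type plexins, 3 of 4 fell in both groups. Sema6d was at 132, 168 and 193 CPM in normal control, 81.0, 97.7 and 114 in vehicle and 89.9, 95.5 and 106 in SKF. The groups did not overlap, with log2 fold changes of -0.75 ± 0.07 (adjusted p = 1.35e-09) and -0.77 ± 0.07 (adjusted p = 8.71e-10). Sema6b fell in the same non-overlapping way (-0.51 ± 0.07 and -0.42 ± 0.07), and Sema6a fell by less (-0.29 ± 0.09 and -0.30 ± 0.09), while Sema6c passed in neither group. Sema7a, the most abundant member per length, was at 261, 304 and 392 CPM in normal control, 330.4, 339.8 and 394 in vehicle and 299, 394 and 426 in SKF. It rose in SKF (0.28 ± 0.08, adjusted p = 0.0055), and its difference of 0.18 ± 0.08 in vehicle did not pass (adjusted p = 0.0644). In vehicle it passed without normal control 2, normal control 8 or SKF 8 (adjusted p 0.0127, 0.0276 and 0.0492).

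**Figure D3:**
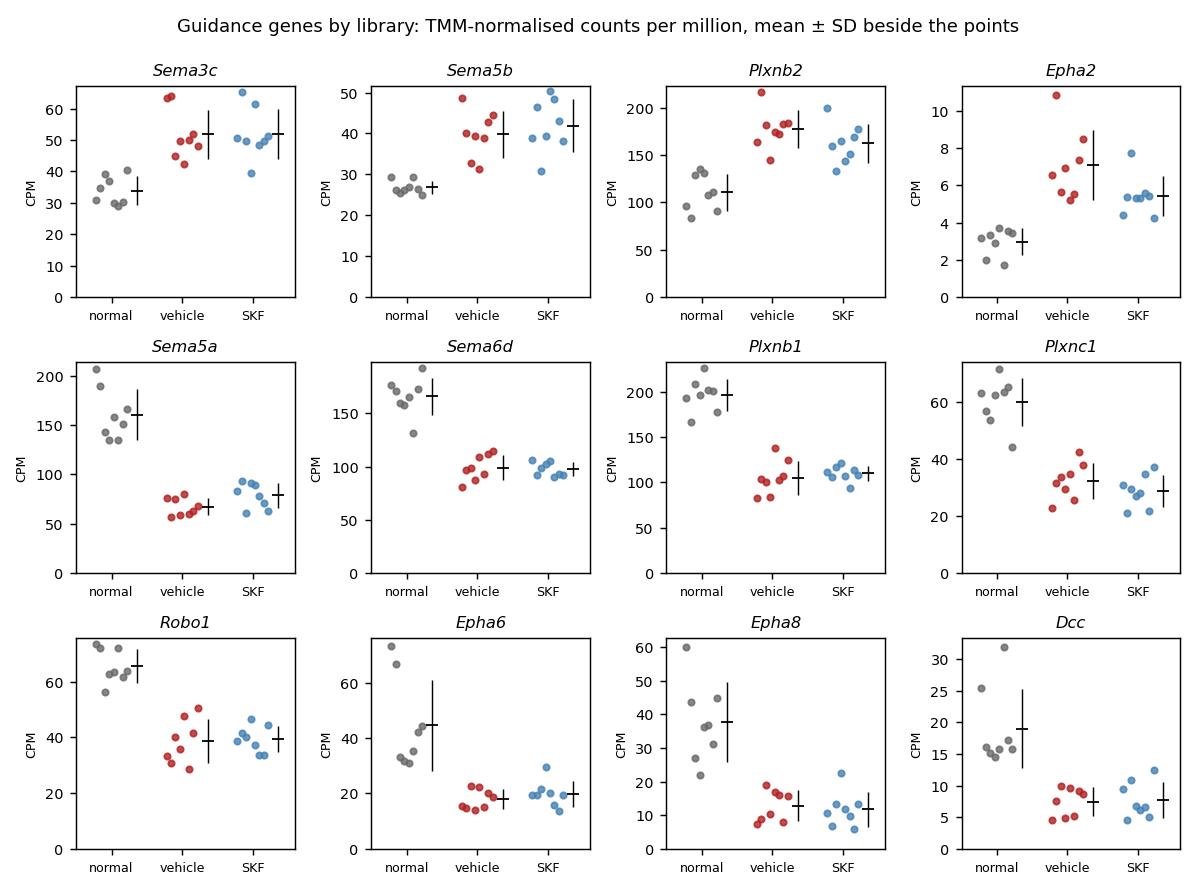
TMM-normalised CPM of 12 guidance genes in each library (points) with the mean ± SD of each group of 8 beside them, on linear axes that start at 0. The 4 genes of the top row are higher in vehicle than in normal control and the other 8 are lower, and the vehicle and SKF points overlap in each of the 12.

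Plexins, the semaphorin receptors, also included members that moved against each other. In vehicle 1 of 9 rose, 4 fell and 4 did not pass, and in SKF 1 rose, 5 fell and 3 did not. That is 55.6% called in vehicle, near the 54.0% of all genes tested, and 66.7% in SKF, against 50.2%. Plxnb1, the Sema4d receptor, was at 167, 199 and 226 CPM in normal control, 82.8, 103 and 138 in vehicle and 93.5, 110.0 and 121 in SKF. No wounded library reached the normal range, and the log2 fold changes were -0.90 ± 0.08 (adjusted p = 7.14e-10) and -0.84 ± 0.08 (adjusted p = 3.02e-09). The related Plxnb2, a receptor of class 4 semaphorins, was at 83.1, 109 and 136 CPM in normal control, 145, 178 and 216 in vehicle and 133, 162 and 199 in SKF. All vehicle libraries lay above the normal range, and 1 SKF library lay just under its top. Plxnb2 rose, with a log2 fold change of 0.68 ± 0.10 in vehicle (adjusted p = 1.2e-06) and 0.55 ± 0.10 in SKF (adjusted p = 2.73e-05). Plxnc1, the plexin that binds Sema7a, was at 44.2, 62.8 and 71.5 CPM in normal control, 22.8, 32.5 and 42.5 in vehicle and 21.0, 28.7 and 37.3 in SKF. It fell without overlap, with log2 fold changes of -0.90 ± 0.12 (adjusted p = 8.09e-07) and -1.06 ± 0.12 (adjusted p = 6.26e-08).

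Plxnb3, a plexin of oligodendrocytes, fell by less, with log2 fold changes of -0.35 ± 0.12 in vehicle and -0.36 ± 0.12 in SKF. The A-type plexins, which pair with neuropilins, had smaller differences. Plxna4 was at 123, 136 and 196 CPM in normal control, 94.2, 129.6 and 163 in vehicle and 114, 144 and 157 in SKF, and the adjusted p was 0.0586 and 0.361. In vehicle it passed without any 1 of 5 libraries (adjusted p 0.0177 to 0.0492). Plxna2 passed in vehicle (-0.27 ± 0.11, adjusted p = 0.0322), but not without any 1 of 5 libraries (adjusted p 0.0597 to 0.0977). Without normal control 6, 1 of the 5, its log2 fold change in vehicle was -0.16 (adjusted p = 0.0977). In SKF it passed only without normal control 1 or 4 among the single libraries (adjusted p 0.0444 and 0.0458). Plxna1 and Plxna3 passed in SKF (-0.16 ± 0.07 and -0.25 ± 0.07), where the call of Plxna1 was lost without any 1 of 8 libraries (adjusted p 0.0516 to 0.113), while Plxna3 also passed in vehicle without vehicle 8 (-0.19, adjusted p = 0.0257). Plxnd1, a plexin of vessels, passed in neither group (0.21 ± 0.11 in vehicle, adjusted p = 0.112), but did in vehicle without normal control 6, the highest of its group (0.32, adjusted p = 0.00454).

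The 2 neuropilins differed. Nrp1, which carries Sema3a signals and is also a co-receptor of vascular endothelial growth factor, was at 27.6, 40.4 and 57.1 CPM in normal control, 20.9, 31.7 and 36.7 in vehicle and 20.4, 31.2 and 35.7 in SKF. Its ranges overlapped, and it fell, with log2 fold changes of -0.46 ± 0.13 (adjusted p = 0.0036) and -0.51 ± 0.13 (adjusted p = 0.00155), a fall that did not pass on TPM in vehicle (-0.30, adjusted p = 0.0627). Nrp2 was at 16.1, 34.1 and 42.1 CPM in normal control, 30.4, 38.0 and 50.9 in vehicle and 29.3, 36.3 and 41.8 in SKF, and did not pass (adjusted p = 0.151 and 0.595).

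In the Slit and Robo families 3 of 6 genes fell in vehicle and 4 of 6 in SKF, and none rose. Robo1, a Slit receptor, was at 56.3, 63.8 and 73.5 CPM in normal control, 28.8, 38.1 and 50.5 in vehicle and 33.6, 39.5 and 46.6 in SKF. The wounded libraries all lay under the normal range, and the log2 fold changes were -0.76 ± 0.10 (adjusted p = 2.43e-07) and -0.73 ± 0.10 (adjusted p = 5.38e-07). Robo2 was at 91.0, 105 and 190.4 CPM in normal control, where the highest value is that of normal control 6, at 65.0, 81.1 and 95.5 in vehicle and at 74.5, 79.3 and 108 in SKF. The other normal controls ran from 91.0 to 115.4 CPM. Robo2 fell, with a log2 fold change of -0.51 ± 0.12 (adjusted p = 0.000853) and -0.43 ± 0.12 (adjusted p = 0.00438), values that include normal control 6. Both falls stayed called without that library. Robo3, which guides commissural axons, was the member of the family with a positive log2 fold change, and passed in neither group (0.41 ± 0.20, adjusted p = 0.087 in vehicle, and 0.42 ± 0.20, adjusted p = 0.0838 in SKF). It passed in both groups without normal control 2 (0.53, adjusted p = 0.0291, and 0.54, adjusted p = 0.0284), in vehicle without vehicle 2 (adjusted p = 0.0304) and in SKF without SKF 8 (0.0462). Robo3 overlaps Robo4, a gene of endothelium, in the RefSeq annotation. Robo4 fits the gene-name rule of the members but was not found by that name in the deposited count table. The part of its reads in the Robo3 counts was not tested.

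Among the Slit ligands, Slit3 fell in both groups (-0.36 ± 0.10, adjusted p = 0.00386, and -0.30 ± 0.10, adjusted p = 0.015) but did not pass on TPM in either. Its libraries ran from 38.2 to 56.8 CPM in normal control, 27.0 to 49.9 in vehicle and 29.4 to 42.9 in SKF. The highest normal control was replicate 6, and no other exceeded 45.23 CPM. Without normal control 6 both falls stayed called on counts. Slit2, the best studied Slit, was at 28.7, 42.8 and 52.2 CPM in normal control, 26.7, 38.2 and 45.4 in vehicle and 24.5, 29.7 and 37.3 in SKF. Its median stepped down from normal control to vehicle to SKF with wide overlap, and it passed in SKF (-0.50 ± 0.11, adjusted p = 0.000579) and not in vehicle (-0.19 ± 0.11, adjusted p = 0.158), where it passed without normal control 6 (-0.26, adjusted p = 0.0346). Slit1, which is mostly neuronal, was at medians of 74.8, 71.0 and 72.3 CPM and had log2 fold changes near 0 (-0.02 ± 0.10 in vehicle).

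Most Eph receptors passed, and most of those fell. In vehicle, 1 of 9 EphA receptors rose, 7 fell and 1 did not pass, with a median log2 fold change of -0.74. The counts in SKF were also 1, 7 and 1, with a median of -0.57. Epha2, an Eph receptor best known from epithelium, rose in both wounded groups while most of its relatives fell. It was at 1.74, 3.25 and 3.71 CPM in normal control, 5.21, 6.73 and 10.9 in vehicle and 4.26, 5.34 and 7.76 in SKF. No wounded library overlapped the normal range, and the log2 fold change was 1.24 ± 0.17 in vehicle (adjusted p = 9.17e-07) and 0.86 ± 0.17 in SKF (adjusted p = 0.000173). The level stayed low, with means of 1.78 TPM in normal control, 4.59 TPM in vehicle and 3.47 TPM in SKF.

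Epha8, an EphA receptor of neurons, showed the reverse. It was at 22.0, 36.6 and 60.1 CPM in normal control, 7.36, 13.1 and 18.9 in vehicle and 5.83, 11.3 and 22.6 in SKF. All vehicle libraries lay under the normal range, and the log2 fold changes were -1.55 ± 0.25 (adjusted p = 1.62e-05) and -1.68 ± 0.25 (adjusted p = 6.9e-06). The upstream sequences of this pair, which moved furthest in opposite directions among EphA receptors with a mean of at least 1 log2 CPM, are shown next to each other, chosen after the values were seen. Each is the 250 bases before the annotated start, on the gene's strand, from RefSeq (build GRCr8), in a table that held 53 of the 68 members. Capitals mark a match to the cAMP response element TGACGTCA, searched on both strands together with 2 other motifs.
Epha2, chr5:158888379-158888628, plus strand: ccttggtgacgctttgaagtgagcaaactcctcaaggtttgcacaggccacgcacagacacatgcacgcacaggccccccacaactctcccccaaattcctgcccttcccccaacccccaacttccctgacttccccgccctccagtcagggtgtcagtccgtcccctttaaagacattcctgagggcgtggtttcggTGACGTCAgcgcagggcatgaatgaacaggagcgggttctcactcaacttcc
Epha8, chr5:154476967-154477216, minus strand: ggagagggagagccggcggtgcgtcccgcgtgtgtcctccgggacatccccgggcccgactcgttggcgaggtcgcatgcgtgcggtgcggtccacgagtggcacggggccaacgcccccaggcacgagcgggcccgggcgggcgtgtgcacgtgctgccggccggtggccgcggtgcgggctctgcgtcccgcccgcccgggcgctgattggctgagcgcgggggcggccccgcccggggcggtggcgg
The Epha2 stretch holds 1 copy of TGACGTCA, which ends 45 bases before the start. The same 8 letters occur in 1.59% of 33469 RefSeq promoters of this length and in no other of the 53 members. The Epha8 stretch holds none of the motifs searched, is 80.0% G and C, and has 40 CpG pairs, against 58.4% and 10 in Epha2 and medians of 51.2% and 5 over all promoters. The other motifs were TGANTCA, a loose form of the AP-1 element, and the STAT element TTCNNNGAA, with N for any base. TGANTCA was found in Epha10 among the members (6.34% of all promoters), and TTCNNNGAA in Efna3 and Epha3 (7.67% of all promoters). None of the motifs overlaps another in the printed stretches, and a match is a description of letters and not of a binding site.

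Other EphA receptors fell together with Epha8. Epha6 was at 30.9, 38.7 and 73.2 CPM in normal control, 13.9, 17.1 and 22.8 in vehicle and 13.5, 19.4 and 29.5 in SKF. Its wounded libraries all lay under the normal range, with log2 fold changes of -1.32 ± 0.18 (adjusted p = 1.57e-06) and -1.17 ± 0.18 (adjusted p = 8.28e-06). Epha7, which patterns cortical and thalamic connections in development, fell, with a log2 fold change of -0.90 ± 0.15 in vehicle (adjusted p = 9.94e-06) and -0.72 ± 0.14 in SKF (adjusted p = 0.000182). In both genes the highest libraries were normal control 1 and 2 (73.2 and 66.6 CPM of Epha6, and 89.2 and 87.6 of Epha7), which also had the highest summed thalamus markers, 277 and 233 TPM. Epha8 was also highest in normal control 1 (60.1 CPM). In normal control 6, with 21.2 TPM of thalamus markers, Epha6 was at 35.3 CPM, Epha7 at 69.7 and Epha8 at 36.9, each above the highest vehicle library (22.8, 38.0 and 18.9 CPM). SKF 4 and normal control 4 both had 116 TPM of thalamus markers. Epha6, Epha7 and Epha8 were at 29.48, 42.95 and 22.55 CPM in SKF 4, and at 31.83, 38.64 and 22.04 in normal control 4. The part of brain region in these falls was not tested.

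Epha4 was at 181, 248 and 349 CPM in normal control, 117, 173 and 232 in vehicle and 134, 177 and 219 in SKF. The groups overlapped, and it fell, with a log2 fold change of -0.62 ± 0.14 (adjusted p = 0.000867) and -0.57 ± 0.14 (adjusted p = 0.00198). Epha5 and the kinase-inactive Epha10 fell as well (-0.41 ± 0.13 and -0.74 ± 0.13 in vehicle, -0.35 ± 0.13 and -0.52 ± 0.13 in SKF), although Epha5 lost its call in SKF without any 1 of 6 libraries (adjusted p 0.0561 to 0.0787). Epha1 had the most negative log2 fold change of all members, -2.20 ± 0.47 in vehicle (adjusted p = 0.000296), on few reads. Its libraries ran from 0 to 5.24 CPM in normal control and 0.2 to 1.08 in vehicle, with normal control 6 at 0. The gene overlaps Zyx in the RefSeq annotation, whose own level rose (log2 fold change 0.87 ± 0.08 in vehicle), and the strand setting of the authors' counting is not given in the sources used here. On log2(TPM + 1) its log2 fold change was -0.96 in vehicle. In SKF it was -1.55 ± 0.44 (adjusted p = 0.00495), and on log2(TPM + 0.1) it did not pass there (-1.06, adjusted p = 0.134). Epha3 did not pass in either group.

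The 5 EphB receptors all passed in vehicle, where 1 rose and 4 fell, while in SKF 2 fell and 3 did not pass. Ephb1 was at 45.2, 55.8 and 78.3 CPM in normal control, 24.3, 34.5 and 37.9 in vehicle and 27.7, 36.9 and 42.2 in SKF. The groups did not overlap, with log2 fold changes of -0.77 ± 0.11 (adjusted p = 2.23e-06) and -0.68 ± 0.11 (adjusted p = 1.44e-05). Ephb2, a receptor of glutamatergic synapses, was at 8.24, 14.3 and 17.1 CPM in normal control, 8.99, 10.5 and 13.1 in vehicle and 9.64, 10.8 and 13.6 in SKF. Its fall was smaller, with overlapping ranges (-0.34 ± 0.12, adjusted p = 0.0206, and -0.32 ± 0.12, adjusted p = 0.0313). The call was lost in vehicle without normal control 1 or 5 (adjusted p 0.0506 and 0.0532), and in SKF without any 1 of 5 libraries (0.0538 to 0.0771). Ephb3 fell in vehicle (-0.33 ± 0.11), and so did the kinase-inactive Ephb6 (-0.23 ± 0.08), whose call was lost without any 1 of 3 libraries (adjusted p 0.0517 to 0.058).

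Ephb4, the Efnb2 receptor of venous endothelium, passed in vehicle and not in SKF. It was at 11.2, 13.3 and 16.8 CPM in normal control, 12.1, 17.8 and 21.5 in vehicle and 11.6, 14.3 and 15.6 in SKF. The SKF range lay within the normal range, and the log2 fold change was 0.35 ± 0.11 in vehicle (adjusted p = 0.00764) and 0.04 ± 0.11 in SKF (adjusted p = 0.77). The difference between SKF and vehicle itself did not pass (adjusted p = 0.889). Ephb4 overlaps Zan in the RefSeq annotation, which was not analysed here.

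Ephrins, the Eph ligands, mostly did not pass. Of the 5 A-type ephrins, held to the membrane by a lipid anchor, 1 rose, 1 fell and 3 did not pass in vehicle, and 0 passed edgeR's test in SKF, where 1 had an unadjusted p under 0.05. Efna2 was at 3.75, 4.24 and 5.10 CPM in normal control, 2.13, 3.44 and 4.01 in vehicle and 2.56, 4.20 and 4.57 in SKF. It fell in vehicle (-0.42 ± 0.15, adjusted p = 0.0186; on TPM the adjusted p was 0.0553) and did not pass in SKF (-0.13 ± 0.15, adjusted p = 0.482). Efna4 rose in vehicle on few reads, from 0.185, 0.612 and 0.979 CPM in normal control to 0.359, 1.25 and 2.34 in vehicle, with 0.531, 1.12 and 1.50 in SKF. Its log2 fold change was 1.12 ± 0.37 in vehicle (adjusted p = 0.0116), or 0.68 on log2(TPM + 1), and 0.87 ± 0.37 in SKF (adjusted p = 0.0529), which passed without any 1 of 7 libraries (0.0321 to 0.0488). Efna1, Efna3 and Efna5 did not pass, although Efna1 did in vehicle without normal control 3 (0.29, adjusted p = 0.0405) and Efna3 without vehicle 1 (-0.33, adjusted p = 0.0165).

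The transmembrane B-type ephrins held 1 large fall. Efnb3, an ephrin of neurons and of the midline that stops axons from crossing, was at 35.5, 53.1 and 99.3 CPM in normal control, 14.2, 19.7 and 50.6 in vehicle and 18.5, 22.9 and 35.6 in SKF. Most wounded libraries lay under the normal range, but vehicle 7 (50.6 CPM), vehicle 8 (38.6 CPM) and SKF 8 (35.6 CPM) reached into it. The log2 fold change was -1.17 ± 0.24 in vehicle (adjusted p = 0.000284) and -1.24 ± 0.24 in SKF (adjusted p = 0.000181). Efnb2, the arterial partner of Ephb4, was at 4.55, 8.02 and 16.4 CPM in normal control, 6.89, 9.69 and 14.0 in vehicle and 5.93, 8.92 and 12.4 in SKF. It did not pass in either group (adjusted p = 0.596 and 0.734), and neither did Efnb1 (0.08 and 0.02).

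Dcc fell the most among the netrin receptors. It was at 14.6, 16.0 and 32.0 CPM in normal control, 4.50, 8.08 and 9.99 in vehicle and 4.61, 6.70 and 12.4 in SKF. The groups did not overlap, and the log2 fold changes were -1.34 ± 0.22 (adjusted p = 1.16e-05) and -1.29 ± 0.22 (adjusted p = 2.01e-05). Normal control 6 had the highest Dcc level of all libraries (32.0 CPM), and Dcc stayed called when that library was left out. The repulsive receptors Unc5c and Unc5d fell in both groups (-0.39 ± 0.10 and -0.44 ± 0.16 in vehicle, -0.42 ± 0.10 and -0.49 ± 0.16 in SKF). Unc5d lost its call in vehicle without normal control 2 (-0.31, adjusted p = 0.0746). Unc5b, which is found in vessels as well as neurons, was at 88.4, 129 and 139.9 CPM in normal control, 87.0, 114 and 132 in vehicle and 82.6, 112 and 122 in SKF. It passed in SKF (-0.24 ± 0.10, adjusted p = 0.043) but not without any 1 of 9 libraries (adjusted p 0.0511 to 0.0938), and in vehicle (-0.18 ± 0.10, adjusted p = 0.122) it passed only without normal control 6 among the single libraries (adjusted p = 0.0222).

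Unc5a was the netrin receptor that rose. It was at 73.2, 77.9 and 90.7 CPM in normal control, 65.8, 97.0 and 118 in vehicle and 76.7, 103 and 119 in SKF, with overlapping groups. The log2 fold change was 0.26 ± 0.09 in vehicle (adjusted p = 0.0238) and 0.34 ± 0.09 in SKF (adjusted p = 0.00412), and the vehicle call was lost without vehicle 1 (adjusted p = 0.0659) or vehicle 6 (0.0534). Unc5a overlaps Hk3, a hexokinase of blood cells, in the RefSeq annotation. Hk3 itself went from a median of 0 CPM in normal control to 5.41 in vehicle and 5.20 in SKF, and the part of its reads in the Unc5a counts was not tested.

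Of the netrins tested, Ntn1 fell in both groups, and its call in vehicle rested on 1 library. Ntn1, the founding netrin, was at 18.8, 26.1 and 61.7 CPM in normal control, 12.0, 19.2 and 31.5 in vehicle and 13.5, 18.4 and 30.3 in SKF. The highest value was that of normal control 6, and no other normal control exceeded 33.7 CPM. The log2 fold change was -0.64 ± 0.22 in vehicle (adjusted p = 0.0167) and -0.66 ± 0.22 in SKF (adjusted p = 0.0149). Without normal control 6 it was -0.41 in vehicle (adjusted p = 0.0522) and -0.44 in SKF (0.0439), and without normal control 4 and 6 it was -0.39 (0.0829) and -0.42 (0.0711). Ntn4, a netrin of basement membranes, fell in SKF (-0.33 ± 0.12, adjusted p = 0.0276), but not without any 1 of 3 libraries (adjusted p 0.0541 to 0.0685), and in vehicle it passed without normal control 1 (-0.29, adjusted p = 0.0296). Ntn3 did not pass, and Ntn5, at medians of 0.38, 0.24 and 0.296 CPM, was under the filter.

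**Figure D4:**
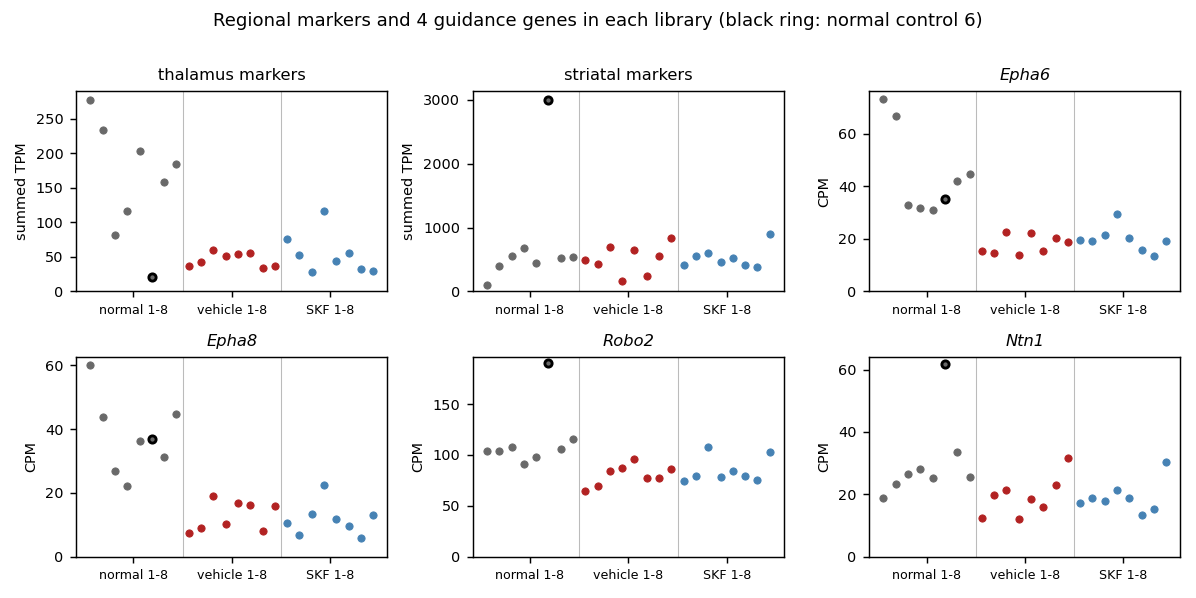
Summed TPM of thalamus markers and striatal markers and TMM-normalised CPM of Epha6, Epha8, Robo2 and Ntn1 in each of the 24 libraries, in the order of the replicate numbers, with normal control 6 ringed. Normal control 6 has the highest striatal sum and the highest Robo2 and Ntn1 of all libraries, the lowest thalamus sum, and levels of Epha6 and Epha8 above every vehicle library.

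Normal control 6 was read against vehicle, since its regional markers differ from those of its group. Without this library 11 members were called higher and 34 lower, and these held all 9 of the rises and 31 of the 33 falls, with Ntn1 and Plxna2 lost. Of the 34 members called lower without it, normal control 6 itself lay above every vehicle library for 19 and above the vehicle median for 24. Of the 11 called higher without it, it lay below every vehicle library for 5 and below the vehicle median for 8. Both sets were called by a fit that holds the same vehicle libraries, so part of this agreement was built in by the choice. The counts are a description and no independent test, and the same shares over all called genes were not computed. Without normal control 4 and 6 together, 8 of the 9 rises (Unc5a lost) and 31 of the 33 falls stayed.

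SKF and vehicle, both wounded, differed in no member by the test. In SKF against vehicle, 0 of 67 members passed edgeR's quasi-likelihood test, as did 0 of all 14421 genes (0%), and 0 members passed with DESeq2, which called 1 gene higher and 5 lower among all genes. Log2 fold changes were above 0 for 33 members and below 0 for 34, with a median of -0.01. An unadjusted p under 0.05 was reached by 5 members, or 7.46% of those tested, against 4.96% of all genes. The 95% interval of the log2 fold change lay within 2-fold in either direction for 66 of the 67 members, the exception being Epha1 (0.66 ± 0.51, interval -0.40 to 1.71), and within 1.5-fold for 60. A difference of 2-fold is therefore outside the interval for all members tested but Epha1.

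The members with the smallest p in each direction were as follows. Ephb4 had a log2 fold change of -0.31 ± 0.11 (interval -0.53 to -0.08, unadjusted p = 0.00805, adjusted p = 0.889) in SKF against vehicle. Slit2 was at -0.31 ± 0.11 (interval -0.55 to -0.08, unadjusted p = 0.0108) and Plxnd1 at -0.27 ± 0.11 (interval -0.51 to -0.04, unadjusted p = 0.0236). Plxnd1 was at 49.6, 58.3 and 77.9 CPM in vehicle and 41.8, 48.1 and 63.0 in SKF, with overlapping ranges. On the positive side, Sema5a was at 0.23 ± 0.10 (interval 0.02 to 0.44, unadjusted p = 0.0348), Efna2 at 0.29 ± 0.15 (interval -0.02 to 0.60, unadjusted p = 0.0611) and Ephb6 at 0.14 ± 0.08 (interval -0.04 to 0.31, unadjusted p = 0.111). Ephb6 ran from 75.3 to 107 CPM in vehicle and 82.2 to 126 in SKF. The fifth member with an unadjusted p under 0.05, Epha2, was at -0.38 ± 0.17 (interval -0.73 to -0.04, unadjusted p = 0.0295). In each of these genes the 2 groups overlapped, and the smallest adjusted p of any member was 0.889.

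**Figure D5:**
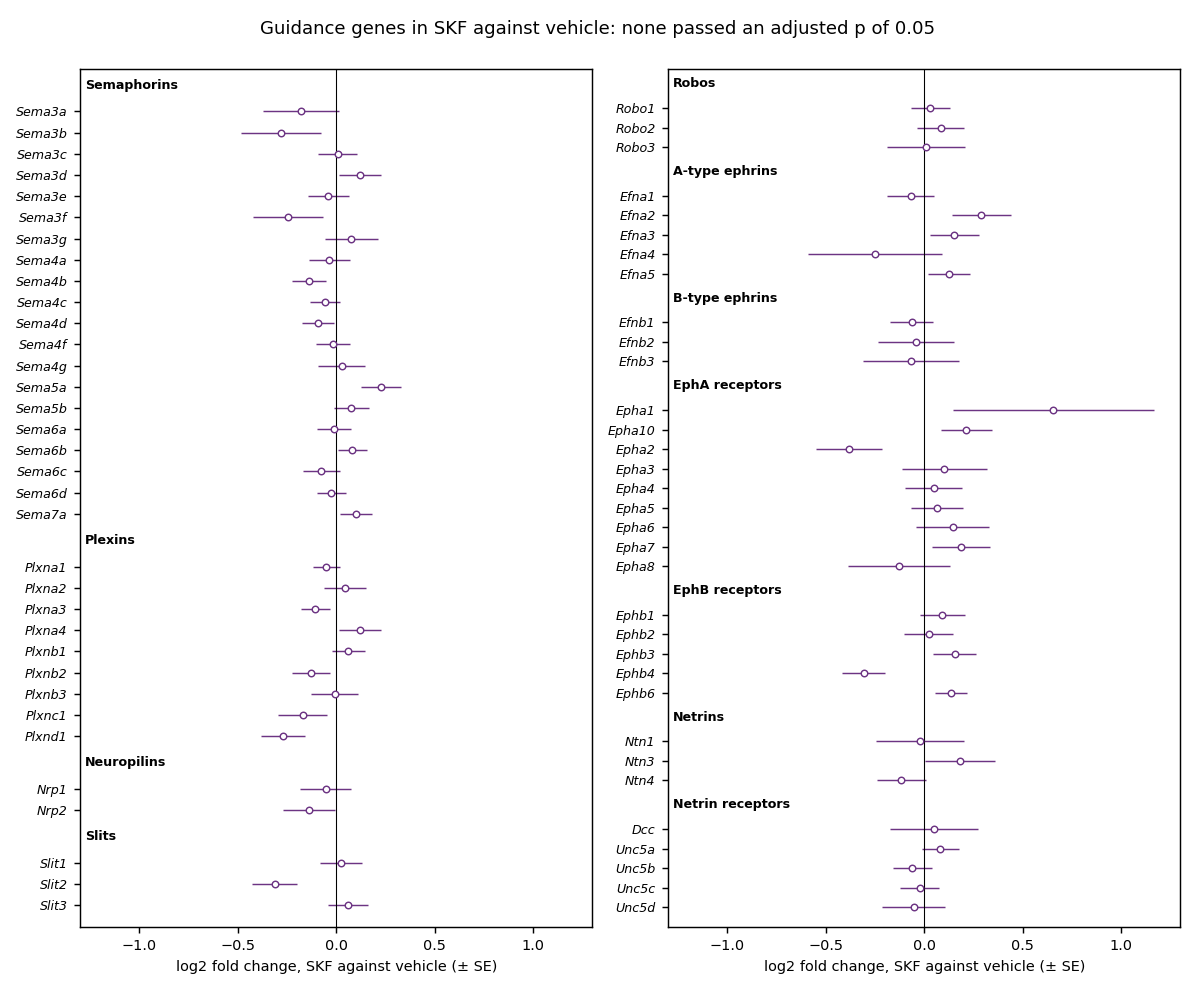
Log2 fold change (± SE) of each tested guidance gene in SKF against vehicle, by family. Values scatter on both sides of 0, none passed an adjusted p of 0.05, and Epha1, which has few reads, has the widest error bar.

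Genes that work with these ligands and receptors were counted in the same way. By direction, 26.9% of all genes rose and 27.1% fell in vehicle, and 25.5% rose and 24.7% fell in SKF. Of 46 intracellular effectors tested, 10 rose and 16 fell in vehicle (56.5% called, against 54.0% of all genes), and 9 rose and 12 fell in SKF (45.7%, against 50.2%). That is 21.7% higher and 34.8% lower in vehicle, and 19.6% and 26.1% in SKF. The 2 with the smallest adjusted p were Srgap2, a GTPase activator of the Slit-Robo pathway (-0.41 ± 0.05 in vehicle, adjusted p = 2.39e-08), and Dpysl5, a collapsin response mediator (-0.72 ± 0.09, adjusted p = 3.31e-07). Both fell. Of 27 other guidance cues, receptors and adhesion molecules, 4 rose (14.8%) and 14 fell (51.9%) in each wounded group. That is 66.7% called, against 54.0% of all genes in vehicle and 50.2% in SKF. The 2 with the smallest adjusted p in vehicle rose. They were Met, the receptor of hepatocyte growth factor (1.54 ± 0.11 in vehicle, adjusted p = 7.25e-12), and Cxcr4, a chemokine receptor also found on leukocytes (1.58 ± 0.19, adjusted p = 9.04e-08). Among 12 myelin-associated growth inhibitors and their receptors, 3 rose and 6 fell in vehicle, and 1 rose and 6 fell in SKF. Omg, the oligodendrocyte myelin glycoprotein, fell, with a log2 fold change of -0.72 ± 0.08 (adjusted p = 2.99e-08), and Ptprf, a receptor phosphatase, rose, with a log2 fold change of 0.54 ± 0.08 (adjusted p = 1.23e-06) in vehicle. In SKF against vehicle 0 genes of these lists passed edgeR's test (adjusted p of at least 0.937 for the 6 named), and 1 effector had an unadjusted p under 0.05.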

How the data were processed

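Brain RNA of 24 samples was poly(A)-selected and made into directional libraries, per the labels' protocols. The authors deposited a table of whole-number read counts per gene and a table of TPM values for the same genes and samples. The genome build was mRatBN7.2, per the submitters' processing notes. The aligner, counter and strand setting are not given in the sources. Groups come from the sample titles. Members were found by matching gene names, and the members, gene lists, marker lists and naming rule were chosen with earlier results of these data known.

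One edgeR model (version 4.0.16, under R 4.3.3) of the counts held all 24 libraries, with TMM scaling, filterByExpr by group and robust dispersion, and left 21 residual degrees of freedom for the quasi-likelihood tests, whose p was adjusted by Benjamini-Hochberg over 14421 genes. The SE is the log2 fold change divided by the square root of F. At these depths the common biological coefficient of variation was 16.2%. Alternatives, 35 in all, were DESeq2 1.42.0, RLE size factors, 2 other filters (no filter, and CPM of at least 1 in 8 libraries), the 2 compared groups alone, limma 3.58.1 (voom with sample weights, or log2 TPM with a pseudocount of 1 or 0.1 and TPM of at least 0.5 in 8 libraries, or no filter), the replicate number as a block, each library left out, and normal control 4 and 6 left out together. Named in full by rule were, per family, the 2 largest rises and falls that passed in vehicle among genes whose average log2 CPM was 1 or more, a fixed set, and the 3 smallest p in each direction in SKF against vehicle. Other members are named with their values. Motifs and the 2 printed promoters were chosen after values were seen. Summaries were made in Python 3.11.15 (pandas 2.3.3, SciPy 1.17.1, NumPy 2.4.6) and figures with Matplotlib 3.10.9.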

Additional observations from a re-analysis of the deposited data

Results flagged for a closer look

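Single libraries stood far from the other 7 of their group in 11 of the 99 combinations of a named gene and a group that were tested. The criterion, Dixon's 95% limit on the gap to the nearest library as a share of the group's range, is met by chance in about 1 of 20 groups, or 4.95 of 99. Values are TMM-normalised CPM.

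Normal control 6 accounted for 5 of the 11. It was high for the Slit receptor Robo2, at 190 against a group median of 105, and for the ligand Slit3, at 56.8 against 41.7. It was low for Slit2, at 28.7 against 42.8, for the semaphorin co-receptor Nrp2, at 16.2 against 34.1, and for the netrin receptor Unc5b, at 88.4 against 129. Normal control 1 was low for Sema3a, at 8.3 against 17.9.

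In vehicle, replicate 1 was low for Nrp1, at 20.9 against a group median of 31.7, and high for Slit3, at 49.8 against 32.5, and replicate 2 was low for Sema4g, at 15.2 against 23.9. In SKF, replicate 3 was high for Epha2, at 7.76 against 5.34, and replicate 4 was high for Ephb2, at 13.6 against 10.8.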

How the results depend on the processing

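Of the 9 members higher in vehicle than in normal control, 7 passed under every alternative in which they were tested, as did 20 of the 33 lower. Efna4, among the 7, was tested in 34 of the 35 alternatives. A further 8 of the 33 were lost on TPM alone. For SKF against normal control these numbers were 7 of 8, and 21 of 35 with 7 lost on TPM alone. No called member changed sign under any of the 35. Leaving out 1 library ended the call of 7 members in vehicle and of 7 in SKF, each named in the report, and the counts then ran from 7 to 11 higher and 31 to 35 lower in vehicle, from 7 to 9 and 31 to 35 in SKF, and stayed at 0 for SKF against vehicle. On TPM, 16 members were higher in vehicle with a pseudocount of 1 or 0.1 and 15 with no filter, and 21, 21 and 20 were lower. Lower in SKF were 23 with a pseudocount of 0.1 and 23 with no filter. Of the differences that had not passed, 6 of 25 in vehicle, 10 of 24 in SKF and 20 of 67 between SKF and vehicle changed sign under at least 1 alternative. Among genes named in full with normal control as the reference these were Sema3a in vehicle (0.00353 on counts, -0.00126 with DESeq2, -0.0269 with the replicate block, -0.133 to 0.0812 with 1 library left out), Nrp2 in SKF (-0.0111 to 0.143 with 1 library left out, -0.0178 without normal control 4 and 6) and Efnb2 in SKF (-0.00906 to 0.27 with 1 library left out). Replicate numbers do not pair the samples in the labels, and in 24 pairs of libraries with the same number the correlation of deviations from the group means ran from -0.241 to 0.0783, with 0 over 0.1 and 0 libraries closest to their own number. With the replicate block, 9 members were higher and 32 lower in vehicle, and 7 and 33 in SKF. Depth limits Ntn5, which was not tested, and Epha1 and Efna4, whose values rest on few reads.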
